A study of Homo sapiens with 95 samples.

Results

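The response of FAT1 knockout cells to benzo(a)pyrene (BaP) was measured by sparse full length (SFL) RNA-seq, a pooled and shallow method that reads fragments from along the whole transcript. The comparison uses 6 of the 95 samples of the series: 3 libraries of cells given 173 μM BaP (FAT1-BaP) and 3 of cells given the solvent DMSO (FAT1-DMSO). All are AALE cells, an immortalized line from human bronchial epithelium, in which FAT1 had been knocked out with CRISPR. Each change is set beside that in GFP cells, AALE cells that had received the Cas9 and EGFP plasmid without guide RNAs, again with 3 BaP and 3 DMSO libraries. Both kinds of cells therefore carry the immortalization and the plasmid transfection, and BaP was added to confluent wells after a change of medium. Whether the knockout line is 1 clone or a pool, and how long BaP was left on, are not given in the sources used here. The study describes the 3 samples of a group as biological replicates, the labels only number them, and neither names separate passages or days, so the p-values measure the spread between these samples. Of 27978 listed genes, 13936 had a mean count above 1 over the 6 FAT1 libraries and were tested.

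BaP is a polycyclic aromatic hydrocarbon of tobacco smoke. It binds the aryl hydrocarbon receptor (AhR), a cytosolic transcription factor held by HSP90 chaperones, which then moves to the nucleus, pairs with ARNT and binds DNA elements with the core GCGTG. The best known targets are the CYP1 family of monooxygenases, which oxidise BaP to products that can form DNA adducts, and AHRR and TIPARP, which damp the receptor. FAT1 is a giant atypical cadherin of epithelial cells that acts on cell adhesion and on the Hippo pathway, whose output is the transcription factors YAP and TAZ.

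Promoters of 4 genes of this response are shown because they hold letters matching elements of AhR or, in EGR1, of serum response factor. They are the 250 bases before the transcription start, read 5′ to 3′ in the direction of transcription, from RefSeq on GRCh38.p14. Where a gene has several starts, the start with most matches is shown. Capitals mark GCGTG or its reverse complement CACGC in the first 3, and the CArG box (CC, 6 bases of A or T, GG), bound by serum response factor, in EGR1. The positions are chr15:74725529-74725778 on the minus strand for CYP1A1, and on the plus strand chr5:322360-322609 for AHRR, chr3:156674340-156674589 for TIPARP and chr5:138465229-138465478 for EGR1.
CYP1A1: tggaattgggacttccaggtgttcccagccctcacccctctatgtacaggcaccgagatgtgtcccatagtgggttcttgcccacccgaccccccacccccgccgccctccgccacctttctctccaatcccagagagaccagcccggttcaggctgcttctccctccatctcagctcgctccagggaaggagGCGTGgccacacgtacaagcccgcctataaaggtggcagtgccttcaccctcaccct
AHRR: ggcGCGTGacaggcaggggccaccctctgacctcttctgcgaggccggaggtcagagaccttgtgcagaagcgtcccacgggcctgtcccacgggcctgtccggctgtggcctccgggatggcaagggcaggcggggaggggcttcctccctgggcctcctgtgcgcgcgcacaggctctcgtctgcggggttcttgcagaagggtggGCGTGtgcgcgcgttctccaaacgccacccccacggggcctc
TIPARP: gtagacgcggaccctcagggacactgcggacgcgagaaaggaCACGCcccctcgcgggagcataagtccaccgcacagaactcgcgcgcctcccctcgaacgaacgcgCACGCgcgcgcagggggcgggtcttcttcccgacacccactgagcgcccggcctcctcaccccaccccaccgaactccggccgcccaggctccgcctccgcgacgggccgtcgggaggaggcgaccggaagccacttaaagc
EGR1: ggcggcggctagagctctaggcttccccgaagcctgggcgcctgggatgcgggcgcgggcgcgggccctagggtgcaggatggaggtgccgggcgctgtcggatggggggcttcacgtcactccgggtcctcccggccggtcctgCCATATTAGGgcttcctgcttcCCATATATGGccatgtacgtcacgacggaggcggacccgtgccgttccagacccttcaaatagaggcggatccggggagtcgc
CYP1A1 held 1 copy of the AhR core in this window, 57 bases before the start, and the windows shown for AHRR and TIPARP held 2 each. TIPARP has 3 annotated starts, of which only the one shown held a match, while both starts of AHRR did. Over 35116 promoters of the same length, searched on both strands, 32.2% held at least 1 copy and 10.2% at least 2, so the core alone is common. These shares are per start, so a gene with several starts has more chances of a match. EGR1 held 2 CArG boxes, against 1.16% of promoters with at least 1 and 0.0313% with at least 2. Of the 9 AhR targets searched, CYP1A1, AHRR, TIPARP, UGT1A6 and NFE2L2 held the core at one start or more and NQO1 did not. Of the 16 early response genes searched, EGR1 and EGR2 held a CArG box in the 250 bases, and FOS did not. Bases further from the start were not searched. A match is a description of the letters and not of binding.

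The knockout was checked first. Over DMSO and BaP, FAT1 (GRCh37 chr4:187508948-187647876, minus strand) had a mean of 102 CPM (counts scaled to library size, with trimmed mean of M values normalization) in the FAT1 libraries and 346 CPM in the GFP libraries, 3.35-fold lower (log2 −1.74, SE 0.0883, adjusted p = 3.82e-25). Reads of FAT1 thus remained in the knockout cells. A small CRISPR lesion alters the protein and need not remove the RNA, and whether these reads came from edited copies was not tested. With BaP, FAT1 was lower still, from 127, 110 and 127 CPM to 83.8, 68.2 and 94.3 CPM. The groups did not overlap, and the change was −0.56 on the log2 scale (SE 0.15, adjusted p = 0.0078). It was not called without BaP replicate 1, with DESeq2 (adjusted p = 0.0948) or after removal of the trend on base composition described below (−0.44, adjusted p = 0.099). In GFP cells it was −0.63 (adjusted p = 1.6e-06), and FAT1 was also called lower with BaP in all 6 other lines of the series.

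The FAT1-BaP libraries held 1382666, 381419 and 434425 counted reads and the FAT1-DMSO libraries between 970886 and 1333632. The GFP libraries ranged from 481230 to 1319161. BaP replicates 2 and 3 of both lines were thus the shallow ones, at which a gene of 10 CPM has only a few reads. The basal epithelial markers KRT5, KRT14, KRT17, TP63, ITGA6, ITGB4, CDH1 and EPCAM all had reads, with a summed level of 4330 to 5358 CPM in FAT1-BaP and 5447 to 5635 CPM in FAT1-DMSO. Of the markers of other cells, endothelial, ciliated and secretory ones summed to at most 7.58 CPM in any FAT1 library, and the leukocyte list summed to 15.8 to 18.0 CPM with BaP and 6.18 to 13.5 CPM with DMSO, with PTPRC, CD3E and LYZ at no read. The fibroblast list summed to 55.6 to 69.6 CPM with BaP and 17.7 to 24.8 CPM with DMSO, of which nearly all was COL1A1. The few other reads leaned to BaP as well: COL1A2 had 3, 0 and 2 reads with BaP and 1, 0 and 0 with DMSO, DCN had 2, 0 and 2 with BaP and none with DMSO, and PDGFRA had 1 read in 1 DMSO library. COL3A1 and LUM had no read in any of the 12 libraries, and the part of other cells in any result was not tested.

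With BaP, 2109 of 13936 genes changed in FAT1 cells at an adjusted p under 0.05 (15.1%), 1083 higher (7.77%) and 1026 lower (7.36%). Genes past this threshold are termed called below. The rises were the larger: 319 called genes rose and 86 fell by at least 2-fold. In GFP cells 1527 of 13838 genes were called (11%), 763 higher (5.51%) and 764 lower (5.52%). Of 13283 genes tested in both lines, 870 were called in both, which is 41.7% of the FAT1 calls and 57.1% of the GFP calls, and 868 of them moved the same way. In FAT1 cells DESeq2 called 654, and leaving out BaP replicate 1, the deepest BaP library, left 1363. With library size alone as the scaling, 1307 were called higher and 759 lower in FAT1 cells, and 1013 higher and 508 lower in GFP cells. In GFP cells 917 were called without DMSO replicate 1 and 959 without BaP replicate 2.

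A trend with base composition ran through the whole response. Genes were placed in 5 groups of equal size by the GC content of their transcripts, with median GC of 38.1, 42.5, 47.5, 54.0 and 61.3%. The median log2 fold change in FAT1 cells rose along them from −0.30 through −0.20, −0.05 and 0.20 to 0.48. In the group of lowest GC 20.2% of genes were called lower and 0.446% higher, and in the group of highest GC 0.111% were called lower and 25.3% higher. In GFP cells the medians of the outer groups were −0.27 and 0.44, and in the 6 other lines given BaP they were −0.16 to −0.29 and 0.32 to 0.51. FAT1 cells given cigarette smoke condensate (CSC) had −0.21 and 0.42, and those given the tobacco nitrosamine NNK −0.29 and 0.42. Each BaP library had the trend. Against the FAT1-DMSO mean, genes of highest GC had medians of 0.40, 0.53 and 0.37 in the 3 FAT1-BaP libraries and those of lowest GC −0.27, −0.41 and −0.25, while the DMSO libraries stayed between −0.02 and 0.02.

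**Figure D1:**
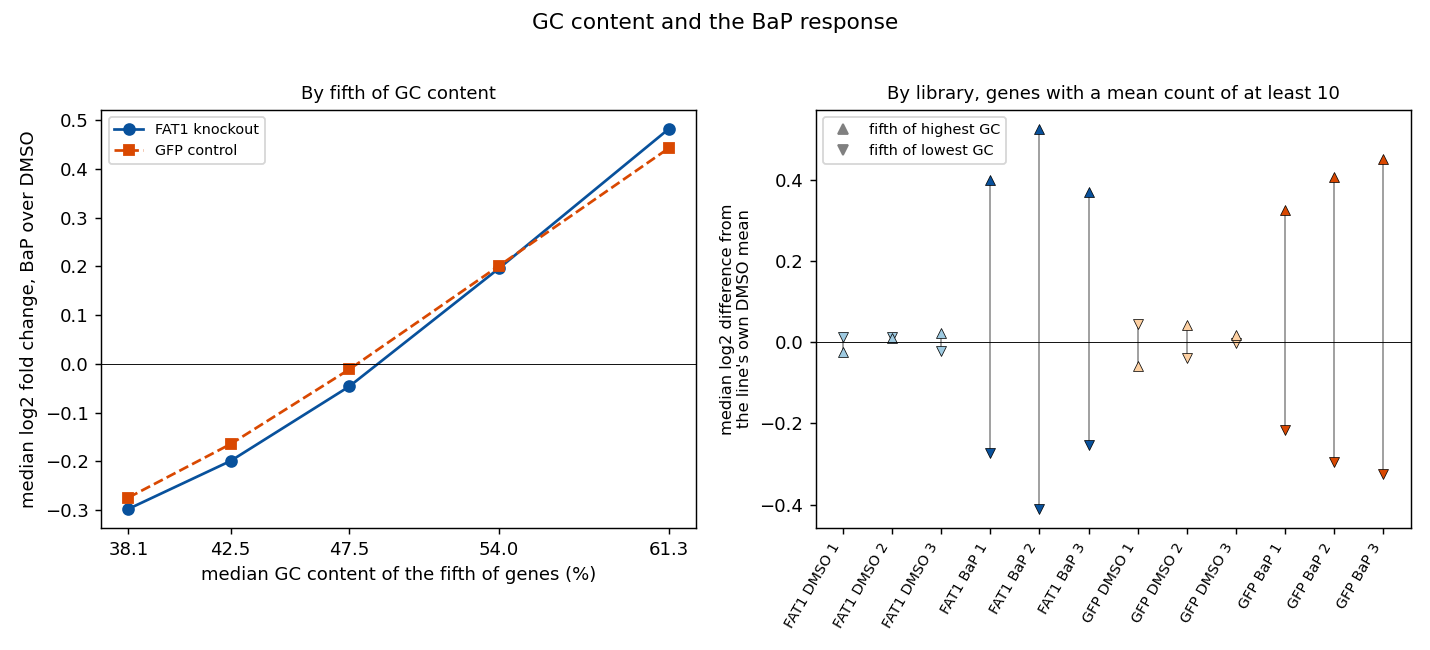
Left, median log2 fold change of BaP over DMSO (vertical axis) against the median GC content in percent of 5 equal groups of genes (horizontal axis), for FAT1 knockout (blue circles) and GFP cells (orange squares); both lines rise from below −0.2 to above 0.4. Right, for each of the 12 libraries, the median log2 difference from its own line's DMSO mean for genes of highest GC (upward triangles) and lowest GC (downward triangles), with the gap wide in every BaP library and narrow in every DMSO library.

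When a smooth trend on GC and transcript length was removed from each library, 399 of 13456 genes were called in FAT1 cells, 169 higher (1.26%) and 230 lower (1.71%), and 298 of the 399 were among the calls without the correction. On the same genes without the correction the count was 2111. BaP and this composition trend cannot be told apart in these samples, since every BaP library has it. Its part in each result was not tested, and the value after correction (GC-corrected) is given beside each group of genes. Genes of short genomic span also moved up, with a median of 0.29 in the shortest and −0.23 in the longest of 5 groups, and these medians were 0.00 and −0.09 after the GC correction.

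Of the gene lists, the AhR targets had the highest median change. Of 9 tested, 6 were called higher and 0 lower, with a median log2 fold change of 1.71 against −0.00033 over all genes, and the same 6 were called after GC correction. CYP1A1 (GRCh37 chr15:75011883-75017877, minus strand), the monooxygenase that opens BaP metabolism, had 836, 836 and 734 CPM with BaP and 8.27, 8.83 and 5.18 CPM with DMSO. All 3 BaP libraries thus lay far above all 3 DMSO libraries, at 102-fold (log2 6.67, SE 0.30, adjusted p = 4.3e-27; GC-corrected 6.47). In GFP cells CYP1A1 went from 10.8, 4.85 and 7.87 CPM to 390, 379 and 378 CPM, a log2 change of 5.62 (adjusted p = 3.0e-21). The starting levels of the lines overlapped and the induced levels did not, yet the difference of 1.10 between the changes (SE 0.43) had an adjusted p of 0.836.

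CYP1B1, the relative of CYP1A1 outside the liver, reached 1044, 816 and 948 CPM from 53.4, 65.4 and 46.6 CPM. This was a 17.3-fold rise (log2 4.11, SE 0.14, adjusted p = 1.9e-34; GC-corrected 4.25), beside 3.63 in GFP cells. The feedback genes rose with them. AHRR, the repressor that competes with AhR for ARNT, had 28.7, 37.9 and 31.4 CPM with BaP and 3.76, 1.77 and 3.11 CPM with DMSO, 9.61-fold (log2 3.27, SE 0.47, adjusted p = 4.8e-07; GFP 3.68). TIPARP, which attaches ADP-ribose to AhR, rose 3.26-fold from 108, 81.3 and 90.1 CPM to 316, 293 and 301 CPM (log2 1.71, SE 0.12, adjusted p = 3.3e-17; GFP 1.48). Neither gene's groups overlapped.

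The list also holds detoxifying enzymes. NQO1, a quinone reductase shared by the AhR and NRF2 programmes, rose from 54.9, 69.8 and 96.3 CPM to 142, 154 and 168 CPM (log2 1.08, SE 0.15, adjusted p = 3.1e-07). In GFP cells NQO1 stood higher under both conditions, at 165, 154 and 128 CPM with DMSO and 419, 368 and 368 CPM with BaP, and its change was 1.43. ALDH3A1, an aldehyde dehydrogenase, rose by 2.10 (SE 0.40, adjusted p = 0.00011; GFP 2.27). UGT1A6, a glucuronosyltransferase, had 5.01, 7.58 and 8.98 CPM with BaP and 4.51, 4.42 and 7.25 CPM with DMSO, with overlapping groups (0.27, adjusted p = 0.77). CYP2S1 (0.19, adjusted p = 0.82) and NFE2L2, the gene of NRF2 (0.02, adjusted p = 0.93), were not called either, and CYP1A2 and SERPINB2 were under the count filter.

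The receptor and its DNA-binding partners were not called. AHR had a log2 change of 0.02 (SE 0.12, adjusted p = 0.93) and ARNT of −0.00 (SE 0.16). ARNT2, a relative of ARNT, had 2, 3 and 2 reads with BaP and 11, 6 and 7 with DMSO (log2 −1.20, SE 0.56, adjusted p = 0.14; GC-corrected −1.30, adjusted p = 0.22). Of the 7 genes of the complex, 2 were called, both lower and both chaperones. HSP90AA1, which holds the unbound receptor, fell by 0.38 on the log2 scale (adjusted p = 8.2e-07), and PTGES3, its cochaperone, had a change of −0.36 (adjusted p = 0.019) that was not called without BaP replicate 2 or without DMSO replicate 2 or 3. After GC correction only HSP90AA1 was called.

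**Figure D2:**
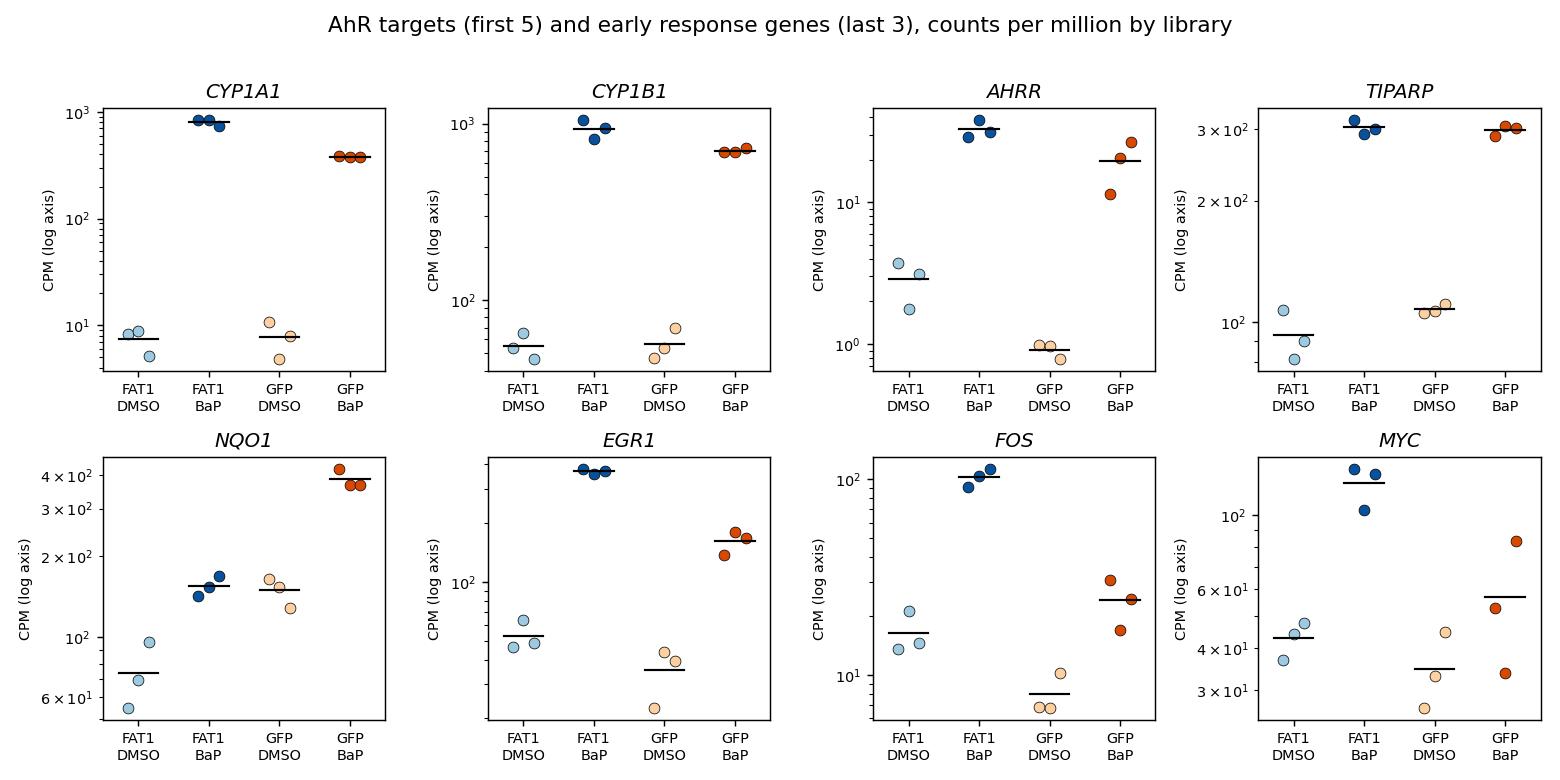
CPM of 8 genes in each library (points, log axis) for FAT1-DMSO, FAT1-BaP, GFP-DMSO and GFP-BaP, with a line at the mean of each group of 3. CYP1A1 lies between 734 and 836 CPM in FAT1-BaP and near 380 CPM in GFP-BaP, from a like control level, and EGR1, FOS and MYC stand highest in FAT1-BaP.

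The early response genes, transcription factors of the AP-1 and EGR families and the phosphatases that switch off ERK signalling, formed the second group. Of 20 tested, 10 were called higher and 0 lower, with a median of 1.37, and 9 were called after GC correction. In GFP cells 9 were called higher with a median of 0.62. EGR1, a zinc finger factor switched on by ERK, had 377, 359 and 368 CPM with BaP and 46.6, 63.6 and 48.7 CPM with DMSO, 6.97-fold (log2 2.80, SE 0.14, adjusted p = 4.5e-25). FOS, a partner in the AP-1 dimer, rose from 13.5, 21.2 and 14.5 CPM to 91.0, 104 and 112 CPM (log2 2.57, SE 0.24, adjusted p = 7.5e-13). The groups were apart in both genes, and their changes in GFP cells were 2.19 and 1.62.

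MYC, the growth-promoting factor, went from 36.8, 44.2 and 47.6 CPM to 137, 104 and 133 CPM in FAT1 cells (log2 1.58, SE 0.17, adjusted p = 1.3e-10). In GFP cells it went from 26.6, 33.0 and 44.9 CPM to 52.6, 33.8 and 83.7 CPM, where the groups overlap (0.62, adjusted p = 0.067). DUSP4, a phosphatase of nuclear ERK, was at 71.6, 68.2 and 74.1 CPM with BaP and 18.0, 20.3 and 19.7 CPM with DMSO (log2 1.86, SE 0.23, adjusted p = 7.5e-09), beside 0.62 in GFP cells (adjusted p = 0.094). The changes were larger in FAT1 cells by 1.0 for MYC (SE 0.29) and 1.27 for DUSP4 (SE 0.34), with adjusted p of 0.771 and 0.717, so neither difference between the lines passed. Over the list, 18 of 20 differences were above 0 with a median of 0.57, against 0.02 over all genes.

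The other called members were the AP-1 genes JUN (1.46), JUND (1.38), FOSL2 (0.89) and JUNB (0.97, GC-corrected 0.33 with adjusted p = 0.24), the immediate early factor IER2 (1.35) and the stress phosphatase DUSP1 (1.36). FOSB and FOSL1, further AP-1 subunits, each had a change of 1.40 at adjusted p of 0.11 and 0.056, on at most 20.2 CPM. EGR1 rose as much in FAT1 cells given CSC (2.83) or NNK (3.02), whereas CYP1A1 changed by 6.60 with CSC and 2.87 with NNK. These comparisons use the same DMSO libraries.

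The rule for the largest rises, called genes of mean count 10 or more whose groups did not overlap, named 12 genes. Besides CYP1A1, CYP1B1, AHRR, EGR1, FOS and ALDH3A1 they included DHRS3, FOXQ1, SNORD24, ZNF408 and PTK6. DHRS3, a retinaldehyde reductase that lowers retinoic acid, rose from 6.77, 9.72 and 6.21 CPM to 45.1, 48.0 and 26.9 CPM, 5.23-fold (log2 2.39, SE 0.34, adjusted p = 4.7e-07; GFP 1.15, GC-corrected 2.10). FOXQ1, a forkhead transcription factor of epithelial cells, rose by 2.14 (adjusted p = 0.0002; GFP 1.19). PTK6, a cytosolic tyrosine kinase of differentiating epithelia, had 34.4, 70.7 and 53.9 CPM with BaP and 11.3, 16.8 and 5.18 CPM with DMSO (2.01, adjusted p = 6.7e-06; GFP 0.90, adjusted p = 0.059). ZNF408, a zinc finger gene, had a change of 2.07 (adjusted p = 0.0011) that was 1.52 with adjusted p = 0.055 after GC correction.

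ABCA1 had the largest of the falls. ABCA1 (GRCh37 chr9:107543287-107690436, minus strand), the transporter that exports cholesterol to apolipoproteins, had 44.4, 30.0 and 35.2 CPM with DMSO and 5.01, 12.6 and 0 CPM with BaP, the last from 0 of 434425 reads. With BaP it was 8.15-fold lower (log2 −3.03, SE 0.51, adjusted p = 1.2e-05; GC-corrected −2.89). GFP cells had 29.5, 17.5 and 25.2 CPM with DMSO and 2.87, 9.39 and 6.13 CPM with BaP (−2.13, adjusted p = 0.00098), and 5 of the 6 other lines were called lower. ABCA1 moved the opposite way with CSC in FAT1 cells (2.17) and the same way with NNK (−2.64).

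Several of the other 11 falls were surface or signalling genes at low counts. TGFBR3, the betaglycan coreceptor of TGF-beta, fell from 54.9, 49.5 and 49.7 CPM to 17.2, 22.7 and 18.0 CPM (log2 −1.47, SE 0.26, adjusted p = 3.2e-05; GFP −0.46, adjusted p = 0.29). SEMA3E, a secreted guidance factor, fell by 1.55 (adjusted p = 0.00059), PLCB4, a phospholipase C, by 1.65 (adjusted p = 0.0012) and ADGRV1, a very large adhesion receptor, by 1.78 (adjusted p = 0.0042). These 4 and ABCA1 were called in each of the 6 fits that left out a library. The zinc finger repressor ZBTB20 (−1.98), the unnamed locus LOC389831 (−2.01) and the RNA-binding gene RBMS3 (−1.75) were not called without BaP replicate 1. The zinc finger gene ZNF493 (−1.70) and the lysosomal transporter MFSD8 (−1.52) were not called without BaP replicate 2, nor the receptor phosphatase PTPRG (−1.55) without BaP replicate 2 or 3. The calcium sensor VSNL1 (−1.71) was called in 1 of the 6 fits, that without DMSO replicate 2. Of the 12, ABCA1, ZBTB20, ADGRV1, RBMS3, PLCB4, SEMA3E and TGFBR3 were called after GC correction, and LOC389831 had no GC value.

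**Figure D3:**
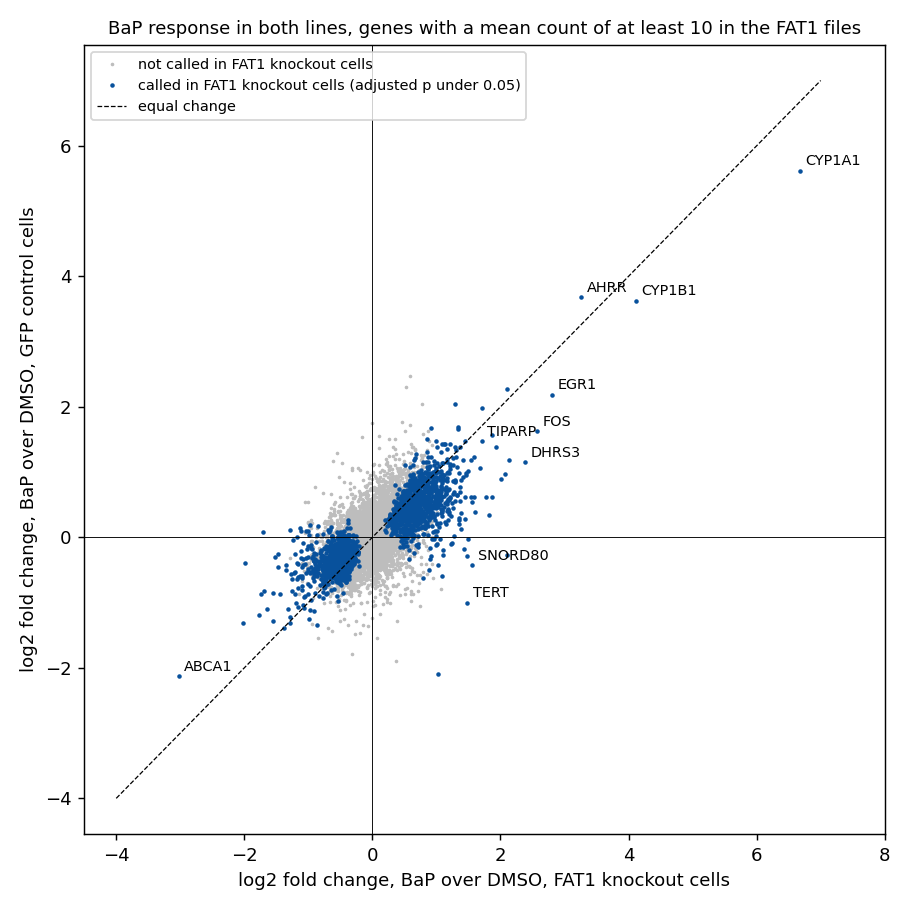
Log2 fold change of BaP over DMSO in FAT1 knockout cells (horizontal) and GFP cells (vertical) for 9924 genes, each a point, blue where called in FAT1 cells, with a dashed line of equal change. Most blue points share their sign between the lines, and CYP1A1, CYP1B1 and EGR1 lie right of the dashed line.

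NRF2 is the transcription factor of the antioxidant response. Of 24 of its targets tested, 14 were called higher and 0 lower, with a median of 0.64, and 10 were called higher after GC correction. GFP cells had 16 called higher, with a median of 0.71. FTL, the ferritin light chain, rose from 222, 206 and 232 CPM to 509, 616 and 640 CPM (log2 1.34, SE 0.10, adjusted p = 2.5e-17; GFP 1.69). TXNRD1, thioredoxin reductase, went from 255, 248 and 256 CPM to 466, 444 and 469 CPM (log2 0.85, adjusted p = 1.3e-10; GC-corrected 0.96). All BaP libraries were above all DMSO libraries in both.

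The conjugate exporter ABCC3 (1.0), sulfiredoxin SRXN1 (0.99) and the ferritin heavy chain FTH1 (0.58) were called too. GPX2, a glutathione peroxidase, and the growth inhibitor OSGIN1 had the largest values, 2.15 each, but at no more than 15.2 CPM, and leaving out BaP replicate 1 or 2 or DMSO replicate 1 or 3 ended either call. HMOX1, heme oxygenase, had 4.30, 10.1 and 2.25 CPM with BaP and 0, 3.53 and 2.07 CPM with DMSO, with overlapping groups (1.82, adjusted p = 0.087). Ferritin genes have near-identical processed copies in the genome, as do GAPDH, histone and ribosomal protein genes, and reads could be split or dropped between copies.

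BaP adducts in DNA are known to activate p53 and are removed by nucleotide excision repair. Of 28 p53 targets, 4 were called higher and 2 lower, beside 7.77% and 7.36% of all genes. The numbers were 2 higher without DMSO replicate 3 and 0 lower without BaP replicate 2. CDKN1A, the cell cycle inhibitor p21, rose from 238, 196 and 193 CPM to 375, 356 and 346 CPM (log2 0.78, SE 0.10, adjusted p = 6.0e-08; GFP 0.97, GC-corrected 0.37). The secreted factor GDF15 (1.56, adjusted p = 0.011), the oxidoreductase TP53I3 (0.77) and PHLDA3, an inhibitor of AKT (0.52), were called higher, and of the 4 only CDKN1A was called after GC correction. MDM2, the ubiquitin ligase of p53, had 418, 389 and 391 CPM with BaP and 381, 324 and 308 CPM with DMSO, a change of 0.24 that was not called (adjusted p = 0.07). After GC correction it was 0.53 (adjusted p = 6.8e-05), with a transcript GC of 39.5%. RRM2B, a ribonucleotide reductase subunit, and the cyclin CCNG1 fell by 0.57 and 0.43, calls that were lost with the correction.

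Of 21 genes of excision repair and translesion synthesis, 0 were called higher and 2 lower, beside 7.36% of all genes lower, among them the mismatch repair gene MSH6 (−0.30, adjusted p = 0.023). After GC correction 0 were called. The number called lower was 0 without BaP replicate 1 or 2 or DMSO replicate 2 or 3, and 1 without DMSO replicate 1. Without BaP replicate 1, 1 member was called higher.

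Of 26 mitotic genes, 16 were called lower and 0 higher, with a median of −0.45 and a median GC of 42.7%, and 8 were called lower after GC correction. GFP cells had 18 called lower and a median of −0.41. Without DMSO replicate 2 the FAT1 count was 9. TOP2A, the topoisomerase that untangles replicated chromosomes, fell from 1312, 1502 and 1412 CPM to 855, 760 and 892 CPM (log2 −0.75, SE 0.07, adjusted p = 9.2e-14; GFP −0.46, GC-corrected −0.48). MKI67, the proliferation antigen, fell from 1672, 1960 and 1736 CPM to 1333, 1280 and 1049 CPM (log2 −0.53, adjusted p = 4.6e-09; GC-corrected −0.48). The spindle genes ASPM (−0.66), DLGAP5 (−0.73), the checkpoint kinase BUB1B (−0.70) and the kinesin CENPE (−0.64) fell as well, and DLGAP5 and CENPE were not called after GC correction. In the bulk libraries, fewer cells in division and less RNA per dividing cell cannot be told apart.

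Of 28 replication genes, 8 were called lower and 2 higher, beside 7.36% and 7.77% of all genes. After GC correction 5 were called lower and 0 higher, and CDT1 and CHAF1A among the 5 were not called before. MCM6, a subunit of the replicative helicase, fell from 215, 246 and 216 CPM to 146, 111 and 155 CPM (log2 −0.70, SE 0.12, adjusted p = 4.2e-05; GFP −0.20, adjusted p = 0.13). POLA1, the priming polymerase, fell by 0.78 (adjusted p = 0.0014) and thymidylate synthase TYMS by 0.59 (adjusted p = 0.019). POLA1 was not called after GC correction (−0.55, adjusted p = 0.071). The helicase subunit MCM2 (0.38) and the factor E2F1 (0.54) were called higher, and had 0.02 and 0.01 after correction. The number called lower was 1 without BaP replicate 1, 3 without BaP replicate 2 or DMSO replicate 2 and 5 without DMSO replicate 3.

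Of 21 clustered histone genes, 14 were called higher and 0 lower, with a median of 0.51 and a median GC of 54.0%, and 4 of the 20 with a GC value were called after correction. HIST1H4E rose from 48.1, 55.7 and 74.5 CPM to 112, 104 and 126 CPM (log2 0.96, SE 0.16, adjusted p = 1.5e-05; GFP 0.54, GC-corrected 0.59). The linker histone HIST1H1E had 0.57, and 0.10 after correction. GFP cells had 6 called higher and a median of 0.27. The FAT1 count was 8 without DMSO replicate 1 and 5 without BaP replicates 2 and 3, where the BaP group is 1 library and the DMSO libraries alone give the spread.

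**Figure D4:**
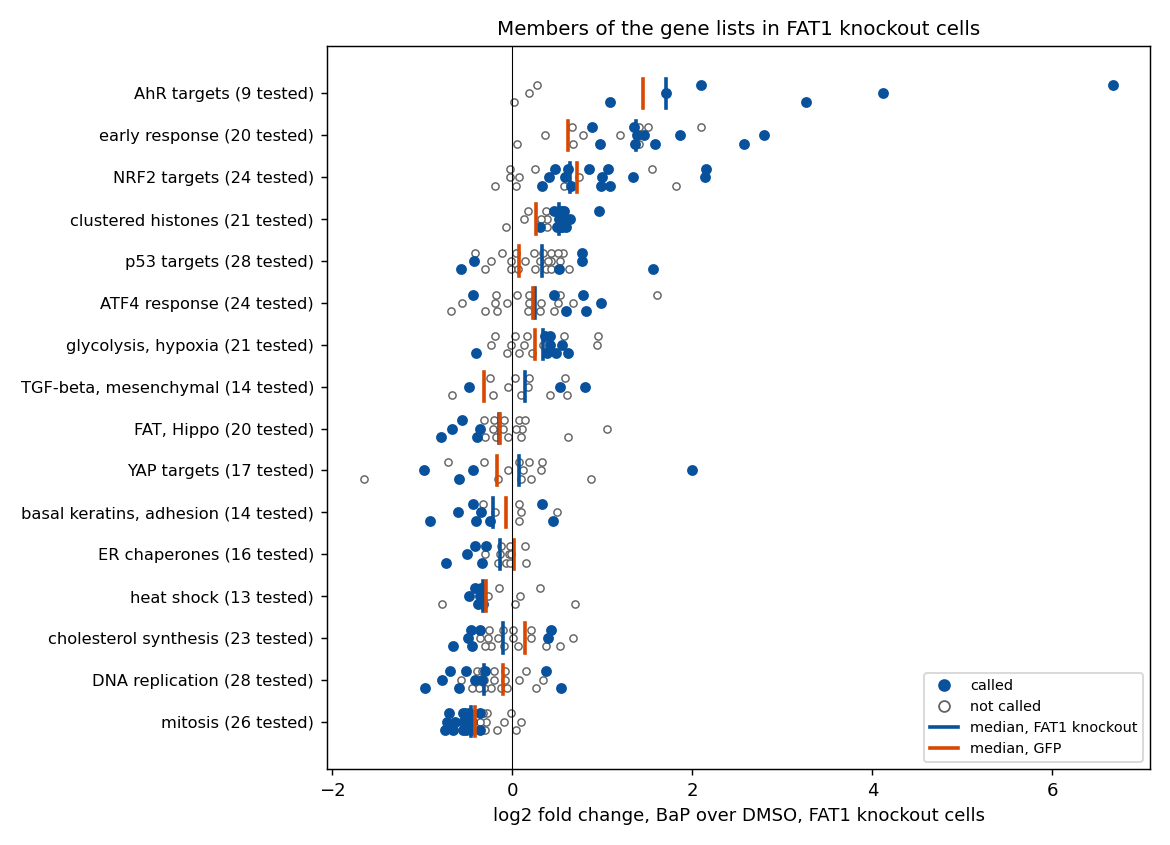
Log2 fold change in FAT1 knockout cells (horizontal axis) of each tested member of 16 gene lists (rows), filled where called and open where not, with the list median in FAT1 cells (blue bar) and in GFP cells (orange bar). The filled points of the AhR targets, early response and NRF2 targets all lie to the right of 0 and those of the mitotic genes all to the left.

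Of 24 genes of the amino acid and ATF4 response, 5 were called higher and 1 lower, beside 7.77% and 7.36% of all genes. After GC correction 3 were called higher and 0 lower. SLC7A5, a transporter of large amino acids, rose from 1327, 1454 and 1382 CPM to 2434, 2561 and 2212 CPM (log2 0.78, SE 0.05, adjusted p = 1.1e-18; GC-corrected 0.27), with its partner chain SLC3A2 (0.60), the mTOR inhibitor DDIT4 (0.82) and the factor CEBPB (0.99, GC-corrected 0.30 with adjusted p = 0.47). Of 16 chaperone and stress genes of the endoplasmic reticulum 5 were called lower and 0 higher, beside 7.36% and 7.77% of all genes. After correction 4 were called lower. Of the 5 only SEL1L was among these, and PDIA4, HYOU1 and CALR were not called before. SEL1L, a scaffold of protein degradation there, had 139, 124 and 130 CPM with BaP and 243, 206 and 215 CPM with DMSO (log2 −0.74, adjusted p = 1.3e-05; GFP −0.34). Of 13 cytosolic heat shock genes 6 were called lower and 0 higher, led by HSPA4 (−0.49) and DNAJA1 (−0.41), beside 7.36% and 7.77% of all genes. After correction 4 were called lower, HSP90AA1, HSPA8, HSPA4 and HSPB1, the last not called before. DNAJA1 was then not called (−0.23, adjusted p = 0.25). The count of the reticulum was 3 without BaP replicate 2 or 3 or DMSO replicate 1, and that of the heat shock genes 3 without BaP replicate 1 or DMSO replicate 2. Among 4 metallothioneins, MT2A was called (0.53), with overlapping groups, and 0 after correction.

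Cholesterol synthesis had 5 called lower and 2 higher of 23, and 2 lower after GC correction. INSIG1, which holds back sterol sensing, had 133, 136 and 121 CPM with BaP and 214, 156 and 165 CPM with DMSO. INSIG1 and the enzymes IDI1 and MSMO1 fell by 0.46, 0.45 and 0.50, beside 0.02, −0.13 and −0.03 in GFP cells. In GFP cells 6 were called higher and 2 lower. The list's median was −0.10 in FAT1 cells and 0.14 in GFP cells, and 6 of 23 differences between the lines were above 0, with 0 called. Leaving out any library other than BaP replicate 3 brought the 5 called lower to 3.

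In glycolysis and hypoxia genes 7 of 21 were called higher and 1 lower, beside 7.77% and 7.36% of all genes, and 1 after GC correction. GAPDH, the glycolytic dehydrogenase, had 0.42 and then 0.06, and PFKL, a phosphofructokinase, 0.55 and then −0.04. NDRG1, a hypoxia target, was called with and without the correction (0.61 and then 0.46). Ribosomal proteins had 9 called higher and 7 lower of 66, and 0 higher and 12 lower after correction. The respiratory chain had 3 higher and 6 lower of 42, and 0 after correction. Over all genes 7.77% were called higher and 7.36% lower. Leaving out BaP replicate 1 brought the ribosomal genes called lower to 3 and DMSO replicate 3 to 4, and BaP replicate 1 or 2 or DMSO replicate 2 brought those of the respiratory chain to at most 2. Of 31 proteasome subunits 4 were called higher and 0 lower, with 2 higher after GC correction and 2 without BaP replicate 1. PSMB7, a catalytic subunit, had 134, 126 and 126 CPM with BaP and 63.9, 91.0 and 87.0 CPM with DMSO (log2 0.71, adjusted p = 0.00044; GC-corrected 0.61), beside −0.14 in GFP cells, a difference of 0.90 (SE 0.23, adjusted p = 0.669).

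Of 8 cytokine genes tested 1 was called, IL1A, an epithelial alarm cytokine, at 33.7, 37.9 and 26.9 CPM with BaP and 10.5, 9.72 and 13.5 CPM with DMSO (log2 1.54, SE 0.30, adjusted p = 0.00021; GFP 1.19, GC-corrected 1.75). Of 23 interferon-stimulated genes, OAS3 (0.52), IRF7 (0.95) and IFI6 (0.80) were called higher, beside 7.77% of all genes. The number was 1 after GC correction (OAS3), 1 without DMSO replicate 2 and 0 without BaP replicate 2.

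Of 20 FAT and Hippo genes, the pathway of the deleted gene, 5 were called lower and 0 higher, beside 7.36% and 7.77% of all genes, and 1 lower after GC correction, 1 without BaP replicate 1, 3 without BaP replicate 2 and 0 with DESeq2. Besides FAT1 they were FAT4, its relative (90.2, 70.7 and 83.9 CPM to 57.3, 37.9 and 49.4 CPM, log2 −0.67, adjusted p = 0.01), the Hippo kinase STK3 (−0.79), its adaptor MOB1A (−0.36) and the YAP partner TEAD1 (−0.39). These 5 were not called after GC correction, and the 1 gene called then was another relative, FAT2 (−0.27, adjusted p = 0.041). GFP cells had 3 called lower, and YAP1 had −0.32 in FAT1 cells (adjusted p = 0.062). Of 17 targets of YAP and TAZ, CRIM1, a transmembrane regulator of growth factors (−0.59, GFP −0.63), the phosphatase PTPN14 (−0.43) and the scaffold AMOT (−0.98) were called lower. CTGF, the matricellular growth factor, was called higher (1.99, adjusted p = 0.0088; GFP 0.19, adjusted p = 0.9), at 14.3, 5.05 and 15.7 CPM with BaP and 0.752, 4.42 and 7.25 CPM with DMSO, where the groups overlap. CTGF and AMOT were not called without BaP replicate 1 or DMSO replicate 1. After GC correction CTGF was called higher and CRIM1 and PTPN14 lower.

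Among basal keratins and adhesion genes 6 of 14 were called lower and 2 higher, beside 7.36% and 7.77% of all genes. After GC correction 8 were called lower and 0 higher, and KRT6A, LAMB3 and COL17A1 among the 8 were not called before. KRT14, a basal keratin, fell from 57.1, 36.2 and 44.5 CPM to 22.9, 30.3 and 22.5 CPM (log2 −0.92, SE 0.25, adjusted p = 0.0074; GFP −1.13, GC-corrected −1.40), a call lost without BaP replicate 1 or DMSO replicate 1. Its partner KRT5 stood at 2721, 2578 and 2149 CPM with BaP and 2977, 2973 and 3022 CPM with DMSO (−0.24, adjusted p = 0.00023; GC-corrected −0.61). The laminin receptor subunit ITGA6 (−0.60), the linker DST (−0.44) and the laminin chain LAMA3 (−0.41) fell with them. E-cadherin CDH1, which is outside this list, fell as well (−0.41). DST was not called after correction (−0.15, adjusted p = 0.17). The stress keratin KRT17 was called higher (0.45, not without BaP replicate 1), with overlapping groups and 0.05 after correction. Of 7 genes of the cornified envelope 1 was called, the desmosomal cadherin DSC2 (−0.53, adjusted p = 0.024). DSC2 was called in 1 of the 6 fits that left out a library, that without DMSO replicate 2, and was not called with DESeq2 or after GC correction (−0.22, adjusted p = 0.58).

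TGF-beta response and mesenchymal genes had 2 called higher and 1 lower of 14, beside 7.77% and 7.36% of all genes. After GC correction 1 was higher and 0 lower, and in GFP cells 0 were higher and 2 lower. TGFBI, a secreted TGF-beta target, rose from 417, 416 and 508 CPM to 656, 700 and 577 CPM (log2 0.53, SE 0.08, adjusted p = 4.1e-06; GFP 0.25, adjusted p = 0.052). The number called higher was 1 without DMSO replicate 1. Fibronectin FN1 fell by 0.48, beside −0.64 in GFP cells. COL1A1, the collagen chain that made up the fibroblast list, rose from 24.1, 16.8 and 20.7 CPM to 53.7, 55.6 and 60.6 CPM (log2 1.41, SE 0.23, adjusted p = 1.1e-05; GFP 0.92, adjusted p = 0.057; GC-corrected 0.91).

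Of 10 nuclear and structured noncoding RNAs 3 were called higher and 1 lower, beside 7.77% and 7.36% of all genes. Of the 9 with a GC value 2 were called higher and 1 lower after correction. RPPH1, the RNA of ribonuclease P, went from 2809, 2610 and 3125 CPM to 5587, 7450 and 6387 CPM (log2 1.12, adjusted p = 9.0e-27; GFP 0.96). RMRP, the related RNA of ribonuclease MRP, had 0.98 (GC-corrected 0.29). NEAT1, the scaffold RNA of paraspeckles, rose by 0.58 (GC-corrected 0.77) and MALAT1, of nuclear speckles, fell by 0.65 (GC-corrected −0.42).

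Whether BaP acted differently in FAT1 and GFP cells was tested by the difference of the changes in 1 fit of the 12 libraries. Of 14029 genes 0 were called (0%), the smallest adjusted p was 0.0693, and 797 genes had an unadjusted p under 0.05. edgeR called 4 of these differences and DESeq2 0. The changes of the lines had the same sign in 94.4% of FAT1 calls, and in 72.2% of all genes tested in both. Among the genes with the smallest p were SNORD80, TERT and SNORD68, named after their values were seen.

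TERT, the reverse transcriptase of telomerase, had 20.8, 32.8 and 29.2 CPM with BaP and 10.5, 11.5 and 4.14 CPM with DMSO (log2 1.48, adjusted p = 0.0026; GC-corrected 0.92, adjusted p = 0.16), beside −1.0 in GFP cells (adjusted p = 0.044). How AALE cells were immortalized is not given in the sources used here, and the origin of the TERT reads was not tested. SNORD80, a small nucleolar RNA that guides methylation of ribosomal RNA, had 59.5, 63.1 and 78.6 CPM with BaP and 17.3, 22.1 and 26.9 CPM with DMSO (log2 1.56, SE 0.23, adjusted p = 6.8e-07), and has no GC value. In GFP cells its change was −0.43 (adjusted p = 0.46), with 18, 10 and 3 reads under BaP. SNORD68, of the same class, had 55.2, 42.9 and 42.7 CPM with BaP and 20.3, 23.9 and 26.9 CPM with DMSO (1.08, adjusted p = 0.00068; GFP −0.60, adjusted p = 0.2). After GC correction its change was 0.53 and not called (adjusted p = 0.24). SNORD80 lies in an intron of GAS5, whose change was −0.22 (adjusted p = 0.29). SNORD24, among the largest rises (2.11, adjusted p = 0.00059), lies in an intron of RPL7A (−0.17, adjusted p = 0.13), and was −0.27 in GFP cells. Reads of a small nucleolar RNA and of its unspliced host cannot be told apart in these counts.

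**Figure D5:**
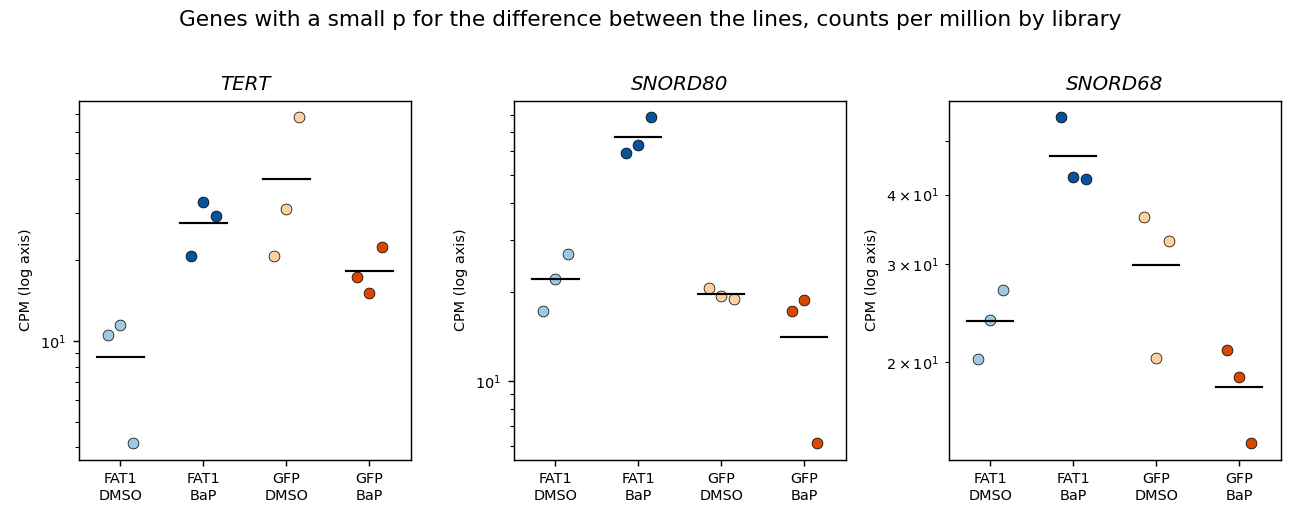
CPM of TERT, SNORD80 and SNORD68 in each library (points, log axis) for the 4 groups, with a line at each mean. The BaP points lie above the DMSO points in FAT1 cells and at or below most of them in GFP cells.

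Across the 6 other lines of the series, CDKN2A knockout cells and 5 overexpression or vector lines, CYP1A1, CYP1B1, TIPARP and EGR1 rose as well. CYP1A1 changed by 4.40 to 8.13 with a median of 5.18, CYP1B1 by 2.72 to 3.32, TIPARP by 1.08 to 1.81 and EGR1 by 1.55 to 2.43, each called in all 6. The FAT1 values of CYP1B1 (4.11) and EGR1 (2.80) lay above those ranges, and those of CYP1A1 (6.67) and TIPARP (1.71) within them. MYC was called higher in 5 of the 6, from −0.04 to 1.14, below its 1.58 in FAT1 cells. TERT rose in 6 of the 6, by 0.21 to 0.90 (4 called), and SNORD68 in 6, by 0.27 to 1.34 (3 called). SNORD80 rose in 5 of the 6 (2 called), with changes from −0.38 to 1.60. The rises of these genes were thus not particular to FAT1 cells, and their changes in GFP cells, given above, lay below those ranges. The differences of FAT1 or GFP cells from the 6 other lines were not tested.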

How the data were processed

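The authors trimmed reads with Cutadapt 1.12, inspected them with FastQC 0.11.5, aligned them to hg19 with STAR 2.5.2b, assigned them to RefSeq genes with featureCounts and deposited the resulting counts, 1 whole number a gene and library with no normalization. The strand setting is not given in the sources used here, so overlapping and antisense genes could not be told apart. Groups follow the sample titles.

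Counts were scaled by TMM in edgeR 4.0.16 (R 4.3.3) and tested with limma 3.58.1 on voom values, fitted to the 6 libraries of a line, or to 12 for the difference between the lines, over genes with a mean count above 1, and p-values were adjusted by Benjamini-Hochberg and called under 0.05. The tests were first tested on simulated data. GENCODE models on GRCh37 gave position, length and GC content (25088 symbols matched, 89.67%, and 96.56% of tested genes with GC). The GC correction removed from each library a loess trend (span 0.3) on GC and transcript length.

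Named genes are CYP1A1, FAT1, the 12 largest called rises and falls of mean count 10 or more whose groups did not overlap, up to 4 called members of each of 26 lists, their defining members and further list members as examples, and a few genes are not reported here. The members, lists and rule were chosen with earlier results of these data known. Alternatives were DESeq2 1.42.0, the quasi-likelihood test of edgeR, other scalings and filters, sample weights, larger fits, a replicate block and leaving out libraries. Leaving out BaP replicates 2 and 3 together and correcting the lists for GC were added after seeing the data.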

Additional observations from a re-analysis of the deposited data

How the results depend on the processing

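The changes of CYP1A1 in both lines and the knockout check of FAT1 kept their direction and their call under every alternative run. With 1 library left out they lay between 6.49 and 6.81 for CYP1A1 in FAT1 cells, between 5.36 and 5.84 in GFP cells and between −1.77 and −1.70 for FAT1 in FAT1 against GFP cells. The number of genes called moved more. In FAT1 cells the 2109 calls became 654 with DESeq2, 1225 without a filter on low counts, 399 with the GC and length correction, 1176 without BaP replicates 2 and 3 (1 BaP library, with the spread taken from DMSO), and 1363 to 1910 with 1 library left out, lowest without BaP replicate 1. With library size alone as scaling 1307 of 2066 calls were higher (759 lower) against 1083 of 2109, and the median of all genes moved by 0.05. In GFP cells the 1527 calls became 451 with DESeq2, 259 with the correction, 302 without BaP replicates 2 and 3, and 917 to 1371 with 1 library left out, with 917 without DMSO replicate 1 and 959 without BaP replicate 2. The difference between the lines, with 0 genes called, had 4 by edgeR's quasi-likelihood test, 3 among the 10000 genes of largest median absolute deviation and 0 to 4 with 1 of the 12 libraries left out, with 4 without FAT1-BaP replicate 1, 3 without FAT1-BaP replicate 3 or GFP-DMSO replicate 2, 2 without GFP-DMSO replicate 3 and 1 without GFP-DMSO replicate 1. TERT and SNORD80 were called by edgeR and among the 10000 genes.

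With the replicate number as a block 3496 genes were called in FAT1 cells, 2587 in GFP cells and 9 for the difference. Deviations of same-numbered FAT1 libraries from their group means had correlations of 0.105, 0.0312 and 0.0298, so the numbers were not taken to pair the samples.

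Of the 109 named genes called in FAT1 cells, 63 were called in each of the 6 fits that left out a library, 62 with DESeq2 and 75 without a filter. Of 107 with a GC value, 54 were called after the correction, and PFKL reversed from 0.55 to −0.042. The cause of these losses was not tested. BaP replicates 2 and 3 hold as few as 381419 reads, and changes of genes with few counts that were not called were not detectable at this depth.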

Other observations

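Small nucleolar RNAs were looked at after SNORD80, SNORD68 and SNORD24 had been seen among the genes above, so the families were chosen after their values were known and carry no test. Of 110 box C/D members (SNORD genes, which guide methylation of ribosomal RNA) 24 were called higher and 0 lower with BaP in FAT1 cells, with a median log2 fold change of 0.62. In GFP cells 1 of 104 was called higher and 0 lower, with a median of −0.26, and 92 of 112 differences between the lines were above 0 with a median of 1.02. After the GC correction 4 of 93 were called higher in FAT1 cells. Of 81 box H/ACA members (SNORA genes, which guide pseudouridylation) 18 were called higher in FAT1 cells and 4 of 76 in GFP cells, with medians of 0.66 and 0.41. For these the check on GC is void, since only 60 of 81 had a value. Most lie in introns of host genes, whose unspliced reads cannot be told apart from theirs. Of 464 ZNF genes, many of which repress transcription, 21 were called higher and 11 lower in FAT1 cells, shares below the 7.77% and 7.36% of all genes. In GFP cells 14 of 491 were called higher and 25 lower, and after the GC correction 1 of 463 was called higher and 1 lower in FAT1 cells.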
